A study of Mus musculus with 9 samples.

Results

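Cardiac muscle cells are joined end to end at the intercalated disc, and 10 genes that encode its main components were followed in the mouse heart around birth. They were taken by symbol from a table of 48820 genes and comprise 3 connexins of the gap junction (Gja1, Gja5 and Gjc1), 5 genes of the desmosome (Dsp, Pkp2, Dsg2, Dsc2 and Jup) and 2 genes of the adherens junction (Cdh2 and Ctnna3). Whole hearts of untreated wild-type C57BL/6J mice were profiled by RNA sequencing at embryonic day 18.5 (E18.5d), postnatal day 1 (P1d) and postnatal day 7 (P7d), with 3 hearts per stage and no other genotype or agent. The values were FPKM, the fragments of a gene per kilobase of its length, relative to the fragments of the whole library. Testing was limited to the 13618 genes whose 9 hearts averaged 1 FPKM or more, and all 10 genes were among them.

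At the disc, gap junctions let ions pass directly from one cell to the next, and each channel is built of connexins. Desmosomes tie the desmin filaments of neighbouring cells together, while adherens junctions anchor the actin of the contractile apparatus. In rodent hearts these structures are known to be spread over the cell surface at birth and to gather at the cell ends during postnatal growth, and mutations of the desmosomal genes are a known cause of arrhythmogenic cardiomyopathy.

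The depth, read from the steps between low values, was 25 to 45 times 1e6 fragments per heart, at which 3 fragments of a gene of 1 kilobase correspond to 0.0667 to 0.12 FPKM. Of the summed FPKM of each heart, 53.3% to 62.3% came from 5 small RNAs (Rn7s1, Rn7s2, Rn7sk, Rpph1 and Rmrp). Scaling the columns to equal sums, an alternative used below, therefore scales them largely to these RNAs. The tissue label fitted the data, since the summed level of 8 markers of working cardiomyocytes was 20122 to 22371 FPKM in the 9 hearts. All hearts were labelled male, but the transcript of Xist, the RNA that silences an X chromosome in females, was at 58.03 to 97.03 FPKM with 4 Y-linked genes at 0 in hearts 1 and 3 of E18.5d and hearts 2 and 3 of P7d. Xist was at most 0.11 FPKM in the other 5 hearts, which included all 3 of P1d. Each called change of the 10 genes is therefore also given for these 5 hearts with little Xist, of which 1 was of E18.5d and 1 of P7d, so that each lone heart is assumed to vary like the hearts of P1d.

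Genomic positions are from GENCODE M21 on GRCm38. The table of RefSeq promoters on GRCm38.p6, each with 250 bases before and 50 after a transcription start, held 7 promoters of 5 of the 10 genes. Those of the 4 genes with a called change are shown, since they let the sequences at genes that fell and rose be set side by side. They run 5′ to 3′ on the strand of the gene, with motif matches in capitals.
Gja1 (chr10:56377050-56377349, plus strand): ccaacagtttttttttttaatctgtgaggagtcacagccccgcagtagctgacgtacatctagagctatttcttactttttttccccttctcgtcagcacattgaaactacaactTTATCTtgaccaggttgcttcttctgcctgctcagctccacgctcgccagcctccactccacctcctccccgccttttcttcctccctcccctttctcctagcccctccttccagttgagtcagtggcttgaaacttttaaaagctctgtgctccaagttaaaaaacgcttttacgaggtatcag
Gja5 (chr3:97032152-97032451, plus strand): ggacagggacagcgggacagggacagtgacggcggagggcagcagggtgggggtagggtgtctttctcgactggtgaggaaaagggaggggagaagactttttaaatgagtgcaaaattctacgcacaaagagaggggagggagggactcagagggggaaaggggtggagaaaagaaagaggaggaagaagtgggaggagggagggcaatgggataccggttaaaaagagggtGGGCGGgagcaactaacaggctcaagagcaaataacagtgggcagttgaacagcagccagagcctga
Jup (chr11:100397741-100398040, minus strand): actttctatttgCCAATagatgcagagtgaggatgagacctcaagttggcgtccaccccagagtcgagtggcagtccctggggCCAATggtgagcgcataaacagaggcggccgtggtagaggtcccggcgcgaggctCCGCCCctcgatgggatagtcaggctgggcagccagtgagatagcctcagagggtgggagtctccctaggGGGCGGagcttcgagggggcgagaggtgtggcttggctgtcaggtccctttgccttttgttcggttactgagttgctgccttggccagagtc
Dsp (chr13:38151044-38151343, plus strand): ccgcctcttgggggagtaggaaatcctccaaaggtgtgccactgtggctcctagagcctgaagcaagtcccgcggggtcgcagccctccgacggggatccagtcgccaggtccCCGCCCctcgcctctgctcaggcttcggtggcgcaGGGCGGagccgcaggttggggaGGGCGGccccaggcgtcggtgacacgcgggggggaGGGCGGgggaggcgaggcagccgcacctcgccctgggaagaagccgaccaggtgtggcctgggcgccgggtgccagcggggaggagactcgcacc

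The Dsp promoter was 73% G and C with 27 CpG dinucleotides, against medians of 52.67% and 7 over all 32851 promoters. The Jup promoter held 60.67% and 14 CpG, that of Gja5 55.67% and 7, and that of Gja1 47.67% and 8. The 3 promoters of Ctnna3, which had no called change, held 67%, 46% and 47.33% G and C with 39, 7 and 2 CpG. Both strands were searched for 6 short motifs. Among general promoter elements these were TATAAA, known as the TATA box, then the letters CCAAT, and as a GC box the letters GGGCGG. Among sites of cardiac factors they were AGATAA for the GATA family, then GGTGTGA for T-box factors, and for NKX2-5 the letters TNAAGTG. None of the matches found overlapped another. Dsp had 4 GC boxes, Jup 2 GC boxes and 2 CCAAT boxes, Gja5 1 GC box and Gja1 1 GATA site, read as TTATCT on the strand shown. Of all promoters, 35.7% held GGGCGG, 37.4% CCAAT, 11.2% AGATAA, 13.6% TATAAA, 11.5% TNAAGTG and 3.98% GGTGTGA. The last 3 were not matched in the 4 windows.

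**Figure D1:**
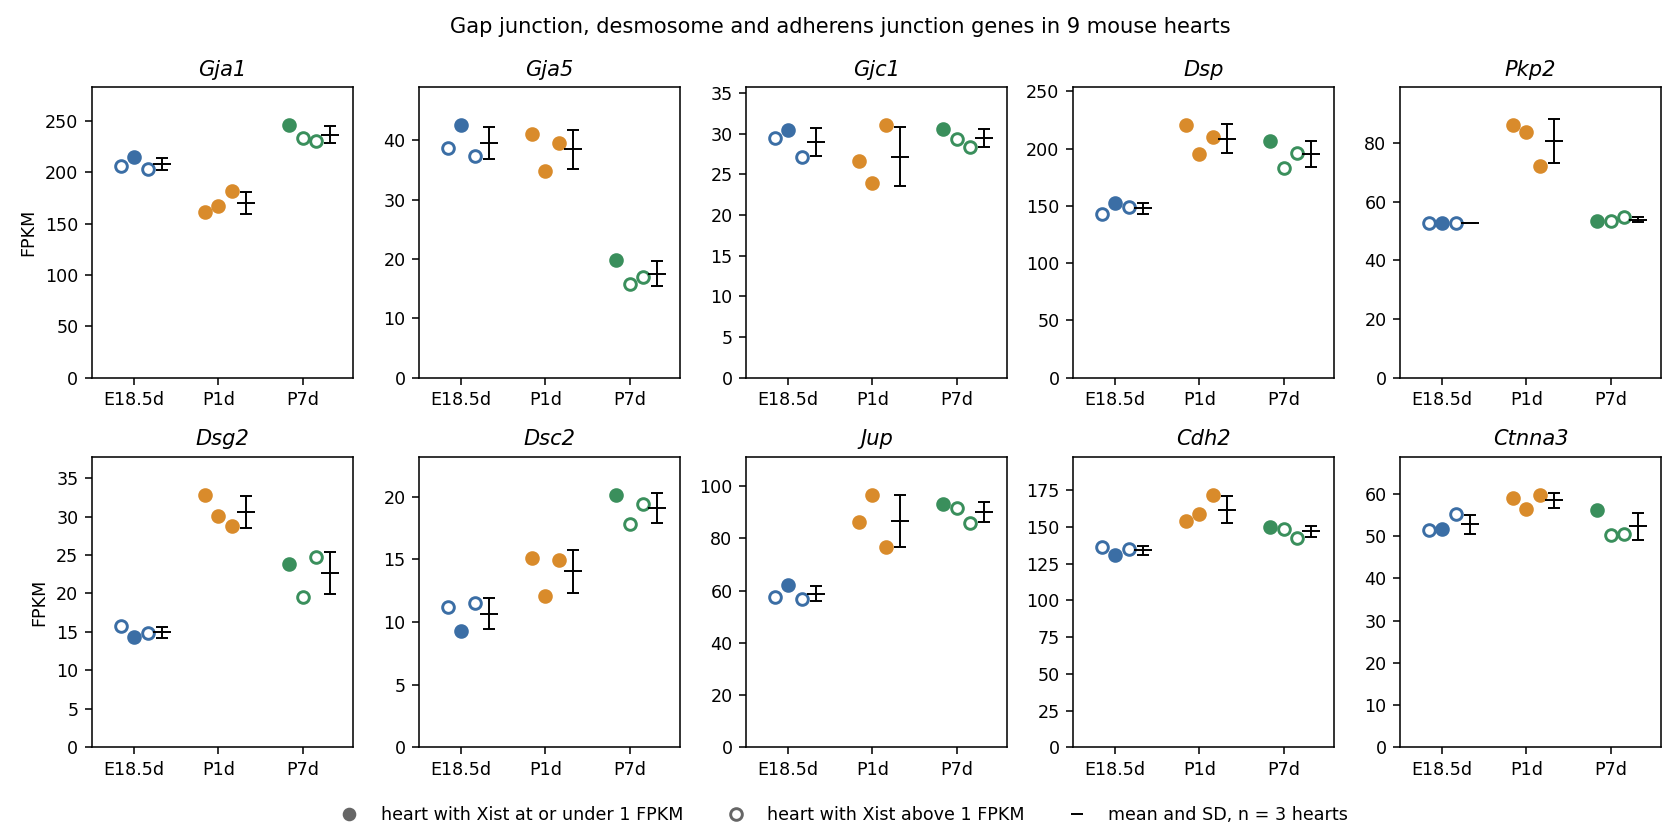
FPKM (vertical axes, linear from 0) of the 10 genes in each of the 9 hearts by stage (horizontal axes). Filled points are hearts with Xist at or under 1 FPKM, open points those above it, and black bars give the mean ± SD of 3 hearts; Gja5 falls between P1d and P7d, while Pkp2 and Dsg2 are highest at P1d.

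By P7d the connexins had parted: Gja5 had fallen to less than 20 FPKM in every heart, Gja1 stood slightly above its fetal level, and Gjc1 was close to where it began. Gja5 (chr3:96904693-97077416, plus strand) encodes Cx40, the connexin of atrial muscle, of the fast-conducting ventricular fibres and of arterial endothelium. Its level was 38.73, 42.52 and 37.31 FPKM in the hearts of E18.5d, 40.97, 34.81 and 39.52 in those of P1d, and 19.8, 15.76 and 16.87 in those of P7d. The hearts of E18.5d and P1d overlapped, and all hearts of P7d lay below them. From E18.5d to P7d Gja5 fell by 1.14 on the log2(FPKM + 1) scale (SE 0.10, limma adjusted p = 1.93e-05). Its mean in FPKM fell by 55.8%, and between P1d and P7d the gene fell by 1.10 on the log2 scale (limma adjusted p = 4.2e-05). The difference between P1d and E18.5d was -0.04 (95% confidence interval -0.25 to 0.17). The fall to P7d was called whichever heart was left out (-1.22 to -1.07) and under 4 other scalings of the columns (-1.18 to -0.93). In the 5 hearts with little Xist it was -1.07 (limma adjusted p = 0.0579), and the fall after P1d was -0.92 (adjusted p = 0.054). In bulk tissue, fewer cells of a type and less RNA per cell cannot be told apart.

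Gja1 (chr10:56377330-56402513, plus strand) encodes Cx43, the main connexin of working ventricular muscle. It was at 206.42, 214.53 and 203.23 FPKM at E18.5d, at 161.29, 167.33 and 181.99 at P1d, and at 245.7, 233.12 and 230.24 at P7d. The stages did not overlap, with P1d lowest and P7d highest. Gja1 fell by 0.29 on the log2 scale from E18.5d to P1d (SE 0.06, limma adjusted p = 0.00358) and rose by 0.47 from P1d to P7d (SE 0.06, adjusted p = 0.000286). In the 5 hearts with little Xist these were -0.33 and 0.53 (adjusted p = 0.145 and 0.0855). The net difference between P7d and E18.5d was small at 0.18 (adjusted p = 0.0294). It missed the threshold when heart 1 or 3 of E18.5d was left out (0.18 and 0.17), when heart 1 or 2 of P7d was left out (0.15 and 0.19), and when columns were scaled to equal sums (0.14, adjusted p = 0.286), and it was 0.19 in the 5 hearts (adjusted p = 0.45).

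Gjc1 (chr11:102799579-102819700, minus strand) encodes Cx45, the connexin of the early heart and of the nodes. Its hearts ranged from 27.09 to 30.4 FPKM at E18.5d, from 23.9 to 31.05 at P1d and from 28.42 to 30.61 at P7d, so that all stages overlapped. The difference between P7d and E18.5d was 0.02 with a 95% confidence interval of -0.18 to 0.23 (limma adjusted p = 0.86). Between P7d and P1d it was 0.12 and missed the threshold, which it passed without heart 3 of P1d (0.22, adjusted p = 0.0459).

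The make-up of the connexin transcripts shifted accordingly. Of the summed FPKM of the 3 genes, Gja5 held 14.3% ± 0.452 in the fetal hearts, 16.3% ± 1.38 on day 1 and 6.16% ± 0.512 on day 7 (SD, n = 3), while Gja1 went from 75.2% ± 0.657 through 72.2% ± 1.78 to 83.4% ± 0.425. Gjc1 kept 10.5%, 11.5% and 10.4%, and the sum was 277, 236 and 283 FPKM. Within each heart the ratio of Gja5 to Gja1, which does not depend on how the columns are scaled, was 0.184 to 0.198 at E18.5d, 0.208 to 0.254 at P1d and 0.0676 to 0.0806 at P7d. The 3 ranges were separate. Its mean log2 differed by -1.37 between P7d and E18.5d in the exact two-sided permutation test at p = 0.1, the smallest that 3 hearts against 3 allow. Over the 24 comparisons of 8 such ratios, every p of 0.1 became 0.133 after Benjamini-Hochberg adjustment. Gjc1 was below Gja5 in each heart of E18.5d and P1d, at ratios of 0.649 to 0.786, and above it in each heart of P7d, at 1.55 to 1.86.

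**Figure D2:**
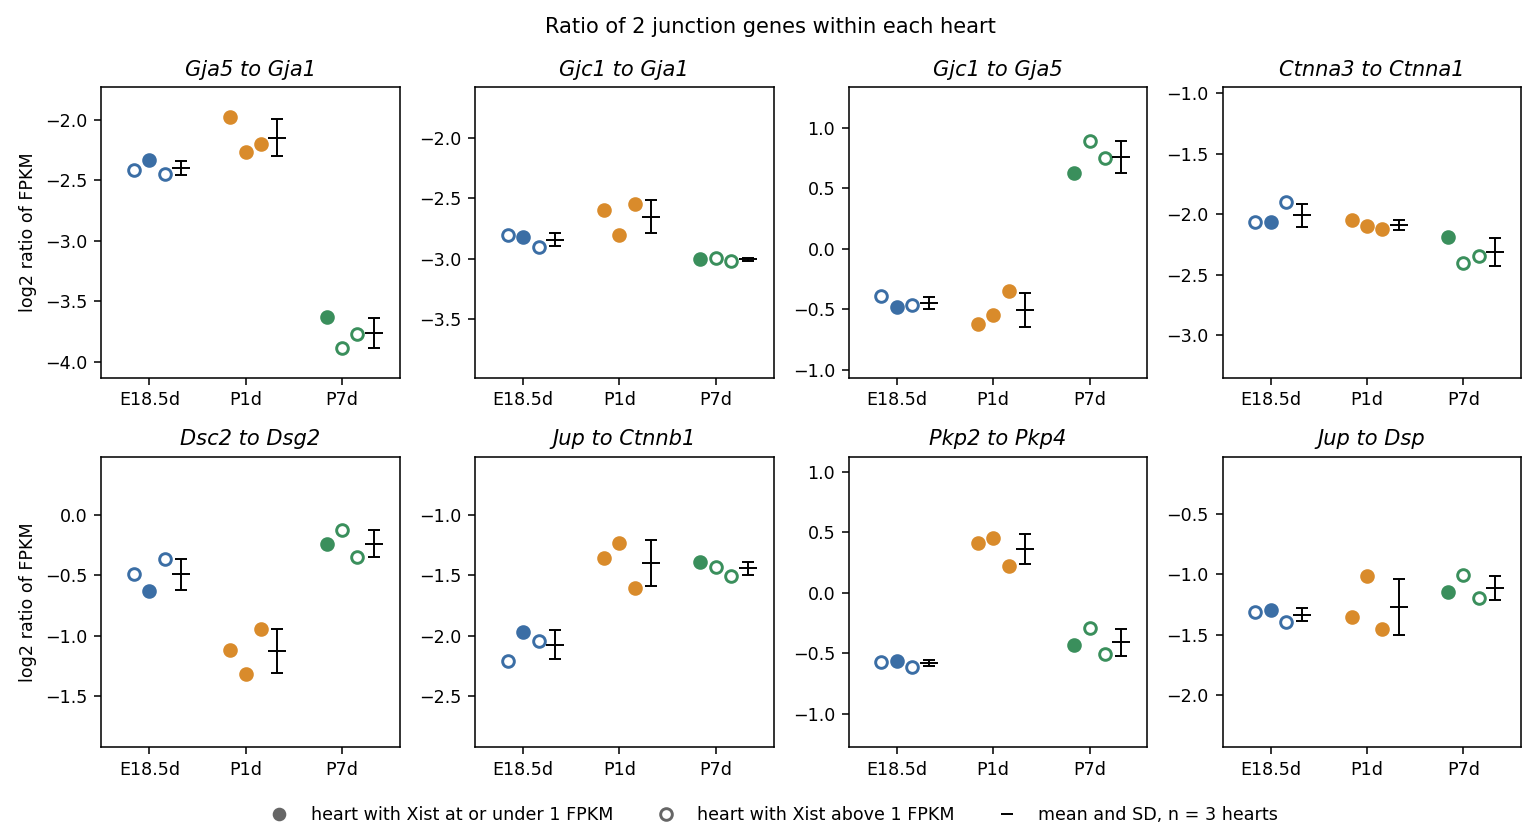
Log2 ratio of FPKM of paired genes within each heart (vertical axes, a separate range for each pair) by stage (horizontal axes). Points are hearts, open where Xist was above 1 FPKM, and black bars give the mean ± SD of 3 hearts; the Gja5 to Gja1 ratio of P7d, at a mean of -3.76, lies below both earlier stages at -2.40 and -2.15.

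Markers of atrial muscle, arteries and conducting tissue, which are known to carry Gja5, were followed beside it. The summed level of 7 atrial markers was 6637 to 7816 FPKM at E18.5d, 6671 to 7082 at P1d and 3427 to 3655 at P7d, and 6 of the 7 were called lower at P7d than at E18.5d, as were 36.9% of all genes tested. Among them the atrial light chain Myl7 went from 2801 through 2232 to 1436 FPKM, the natriuretic peptide gene Nppa from 2103 through 2538 to 1047, and Sln, an inhibitor of the calcium pump, from 487 through 594 to 257. In the 5 hearts with little Xist the changes of these 3 between E18.5d and P7d were -0.87, -1.06 and -0.92. The calls were lost there, as were most calls among all genes. The mean log2 ratio of Gja5 to each atrial marker was lower at P7d than at E18.5d for 6 of the 7, with differences from -1.12 (Stard10) to 0.04 (the light chain Myl4) and a median of -0.26. To the 8 working cardiomyocyte markers it was lower for all 8, from -1.89 (the calcium channel gene Ryr2) to -0.64 (the troponin gene Tnnt2), with a median of -1.53, and to the 7 arterial markers lower for all 7, from -1.40 to -0.59. To the 10 conduction markers it was lower for 6, from -2.81 (Cntn2) to 2.44 (Slitrk5), with a median of -0.55. These ratios were chosen after the values were seen and are descriptions. The 7 arterial markers summed to 84.8 to 95.7 FPKM at E18.5d and 72.1 to 80.03 at P7d, with 2 of 7 lower. The 10 conduction markers summed to 33.4 to 35.5 and 30.1 to 31.5, with 4 of the 7 tested lower and 2 higher. Of all genes tested, 36.9% were lower and 12.5% higher. Conduction markers moved both ways between E18.5d and P7d. The mean of Cntn2 went from 0.58 to 1.75 FPKM and that of Irx3 from 4.95 to 9.83, while Hcn4 went from 3.71 to 2.18 and Shox2 from 1.73 to 0.437. No marker of the 3 lists was at 0 in all hearts, although 3 conduction markers averaged under 1 FPKM. The part of atrial, arterial and conducting tissue in the fall of Gja5 was not tested.

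**Figure D3:**
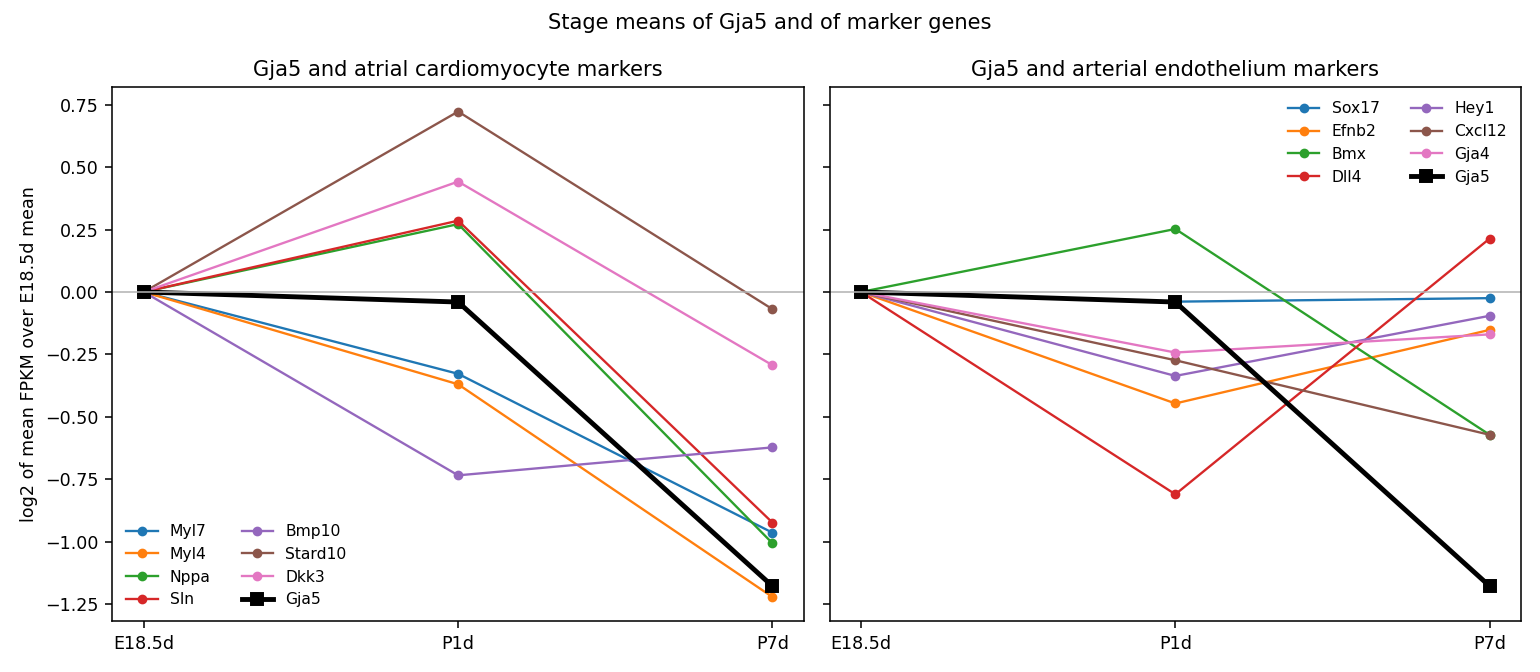
Log2 of the stage mean over the E18.5d mean (vertical axis) of Gja5 (black) and of 7 atrial markers (left) and 7 arterial markers (right) across the 3 stages (horizontal axis). Lines are single genes; Gja5 at P7d stands at 0.442 of its E18.5d mean, the atrial markers range from 0.429 (Myl4) to 0.953 (Stard10), and the arterial ones from 0.673 (Bmx and Cxcl12) to 1.16 (Dll4).

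All 5 desmosomal genes were called higher at P1d than in fetal hearts, as were 18.4% of all genes tested in that comparison. Their summed level rose from 285 ± 5.29 FPKM at E18.5d to 421 ± 19.1 at P1d and stood at 381 ± 15.7 at P7d (SD, n = 3). Dsg2 and Dsc2, whose proteins are the adhesive cadherins of the desmosome, were the scarcest of the 5. Dsg2 (chr18:20558074-20604521, plus strand) was at 15.77, 14.29 and 14.8 FPKM at E18.5d, at 32.84, 30.06 and 28.78 at P1d, and at 23.81, 19.5 and 24.69 at P7d. The stages did not overlap. Dsg2 rose by 0.98 on the log2 scale to P1d (SE 0.09, limma adjusted p = 4.44e-05), fell by 0.42 from P1d to P7d (adjusted p = 0.00542) and ended 0.56 above E18.5d (adjusted p = 0.000921). The rise to P1d was 1.04 in the 5 hearts with little Xist, and the other changes were -0.35 and 0.70. The fall after P1d was -0.29 and missed the threshold with columns of equal sums (adjusted p = 0.145), as it did at -0.27 with equal sums of protein-coding nuclear genes.

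Dsc2 (chr18:20030633-20059554, minus strand) climbed instead across both intervals. Its level was 11.24, 9.26 and 11.5 FPKM at E18.5d, 15.12, 12.09 and 14.97 at P1d, and 20.17, 17.84 and 19.4 at P7d, without overlap between stages. The rise from E18.5d to P7d was 0.79 (SE 0.11, limma adjusted p = 0.00029), the largest among the 10 genes in the fit without covariates, and 1.04 in the 5 hearts with little Xist (adjusted p = 0.0784). With the working cardiomyocyte markers as a covariate it was 0.0035, with a wider SE of 0.41 (adjusted p = 0.998), and the step to P1d was -0.21 (SE 0.31, adjusted p = 0.738). In that fit the changes of Gja1, Dsp and Dsg2 from E18.5d to P7d were 0.11, 0.17 and 0.43. Those of Jup and Gja5 were 1.07 and -1.66 (SE 0.36 and 0.41, limma adjusted p = 0.264 and 0.188). The markers themselves changed with stage, by a median of 0.35 over this interval, and the SE of Gja1 was 0.28. Stage and marker level are thus poorly separated in that fit, and the part of cardiomyocyte content in these changes was not tested. The step of Dsc2 from P1d to P7d was 0.42 (adjusted p = 0.00994), 0.50 in the 5 hearts, and 0.37 with Xist as a covariate (adjusted p = 0.0685). The step to P1d was 0.37 (adjusted p = 0.018), and 0.55 in the 5 hearts. It missed the threshold without heart 2 of E18.5d (0.28), without heart 1 of P1d (0.32) and without heart 3 of P1d (0.32), and with columns of equal sums (0.21, adjusted p = 0.314). Within hearts, Dsc2 per Dsg2 ranged from 0.648 to 0.777 before birth, from 0.402 to 0.520 on day 1 and from 0.786 to 0.915 on day 7, 3 separate ranges. The mean log2 ratio differed by -0.63 between P1d and E18.5d and by 0.89 between P7d and P1d, each at the exact permutation limit of p = 0.1 (adjusted 0.133).

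Dsg2 and Dsc2 stand in a cluster of 9 desmosomal cadherin genes on chromosome 18 (19960930 to 20604521), whose other members serve mainly in skin and similar epithelia. The other 7 genes reached at most 0.11 FPKM in any heart, so the desmosomal cadherin transcripts of these hearts came from this pair.

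Dsp, Jup and Pkp2 encode the plaque that links the cadherins to desmin. Dsp (chr13:38151294-38198577, plus strand), the gene of desmoplakin, was at 142.78, 152.14 and 148.89 FPKM at E18.5d, at 220.45, 195.03 and 210.18 at P1d, and at 206.31, 183.38 and 196.39 at P7d. Both postnatal stages lay above E18.5d and overlapped each other. The rise was 0.49 at P1d (SE 0.07, limma adjusted p = 0.000318) and 0.40 at P7d (SE 0.07, adjusted p = 0.000965), and 0.45 and 0.44 in the 5 hearts with little Xist. With columns of equal sums the rise to P1d was 0.32 and missed the threshold (adjusted p = 0.0651).

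Jup (chr11:100368958-100397763, minus strand) encodes plakoglobin, a relative of beta-catenin found in desmosomes and adherens junctions alike. It was at 57.52, 62.05 and 56.8 FPKM at E18.5d, at 86.42, 96.74 and 76.75 at P1d, and at 93.26, 91.51 and 85.95 at P7d. It rose with birth and stayed up, by 0.55 at P1d (SE 0.08, limma adjusted p = 0.000661) and 0.61 at P7d (SE 0.08, adjusted p = 0.000329), and by 0.47 and 0.58 in the 5 hearts with little Xist. Beta-catenin (Ctnnb1) differed by -0.01 between P7d and E18.5d (adjusted p = 0.885), and the ratio of Jup to Ctnnb1 was 0.217 to 0.255 at E18.5d, 0.329 to 0.424 at P1d and 0.353 to 0.381 at P7d. Jup per Dsp was 0.381 to 0.408 at E18.5d and 0.438 to 0.499 at P7d, a mean log2 difference of 0.22 at the exact permutation limit of p = 0.1. At P1d it was 0.365 to 0.496, which overlapped both other stages (permutation p = 0.9 against E18.5d and 0.3 against P7d).

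Pkp2 (chr16:16213318-16272712, plus strand), the plakophilin of the heart, rose at P1d and was back near its fetal level at P7d. It was at 52.65, 52.78 and 52.82 FPKM at E18.5d, at 86.19, 83.81 and 72.38 at P1d, and at 53.58, 53.52 and 54.83 at P7d. The hearts of E18.5d and P7d lay close together, all far below those of P1d. Pkp2 rose by 0.60 to P1d (SE 0.07, limma adjusted p = 0.000116) and fell by 0.57 to P7d (SE 0.07, adjusted p = 0.000201), and these were 0.60 and -0.58 in the 5 hearts with little Xist. The net difference was 0.03 (95% confidence interval -0.12 to 0.18, adjusted p = 0.714), but 0.24 when columns were scaled by the median of ratios (adjusted p = 0.0154). Its ratio to Pkp4, a plakophilin relative of broader expression, was 0.656 to 0.676 at E18.5d, 1.16 to 1.37 at P1d and 0.704 to 0.820 at P7d. Pkp4 itself averaged 78.9, 62.7 and 71.8 FPKM in these stages, so both genes contributed to the change of the ratio.

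Of the adherens junction genes, Cdh2 was called in 1 of the 3 comparisons and Ctnna3 in 0 of them. Cdh2 (chr18:16588877-16809246, minus strand) encodes N-cadherin, the adhesion molecule of the disc. Its level was 136.63, 130.83 and 135.24 FPKM at E18.5d, 153.99, 159.15 and 171.97 at P1d, and 149.68, 148.83 and 142.71 at P7d, without overlap between stages. It rose by 0.27 to P1d (SE 0.06, limma adjusted p = 0.00403), a call that was lost with columns of equal sums (0.09, adjusted p = 0.471), and it was 0.30 in the 5 hearts with little Xist. The difference between P7d and E18.5d was 0.13 (adjusted p = 0.079), and 0.34 with the median of ratios (adjusted p = 0.0024). It was 0.13 and past the threshold without heart 3 of P1d (adjusted p = 0.0472).

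Ctnna3 (chr10:63430098-65003667, plus strand) encodes alpha-T-catenin, which couples cadherins to actin and binds plakophilin in heart muscle. It ranged from 51.35 to 55.32 FPKM at E18.5d, from 56.47 to 59.77 at P1d and from 50.27 to 56.05 at P7d, and none of its 3 comparisons passed the threshold. Between P7d and E18.5d the difference was -0.01 (95% confidence interval -0.15 to 0.12), and 0.19 with the median of ratios (limma adjusted p = 0.0309). Between P1d and E18.5d it was 0.14, and 0.22 with the median of ratios (adjusted p = 0.0161). Between P7d and P1d it was -0.16, and -0.21 without heart 1 of P7d (adjusted p = 0.0303). Ctnna1, the alpha-catenin of most tissues, rose by 0.29 between E18.5d and P7d (adjusted p = 0.00186), and was 0.24 higher in the 5 hearts with little Xist (adjusted p = 0.34). Ctnna3 per Ctnna1 was 0.239 to 0.268 at E18.5d and 0.189 to 0.220 at P7d, a mean log2 difference of -0.30 with the exact permutation p at its limit of 0.1. At P1d it was 0.229 to 0.242, which overlapped E18.5d.

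**Figure D4:**
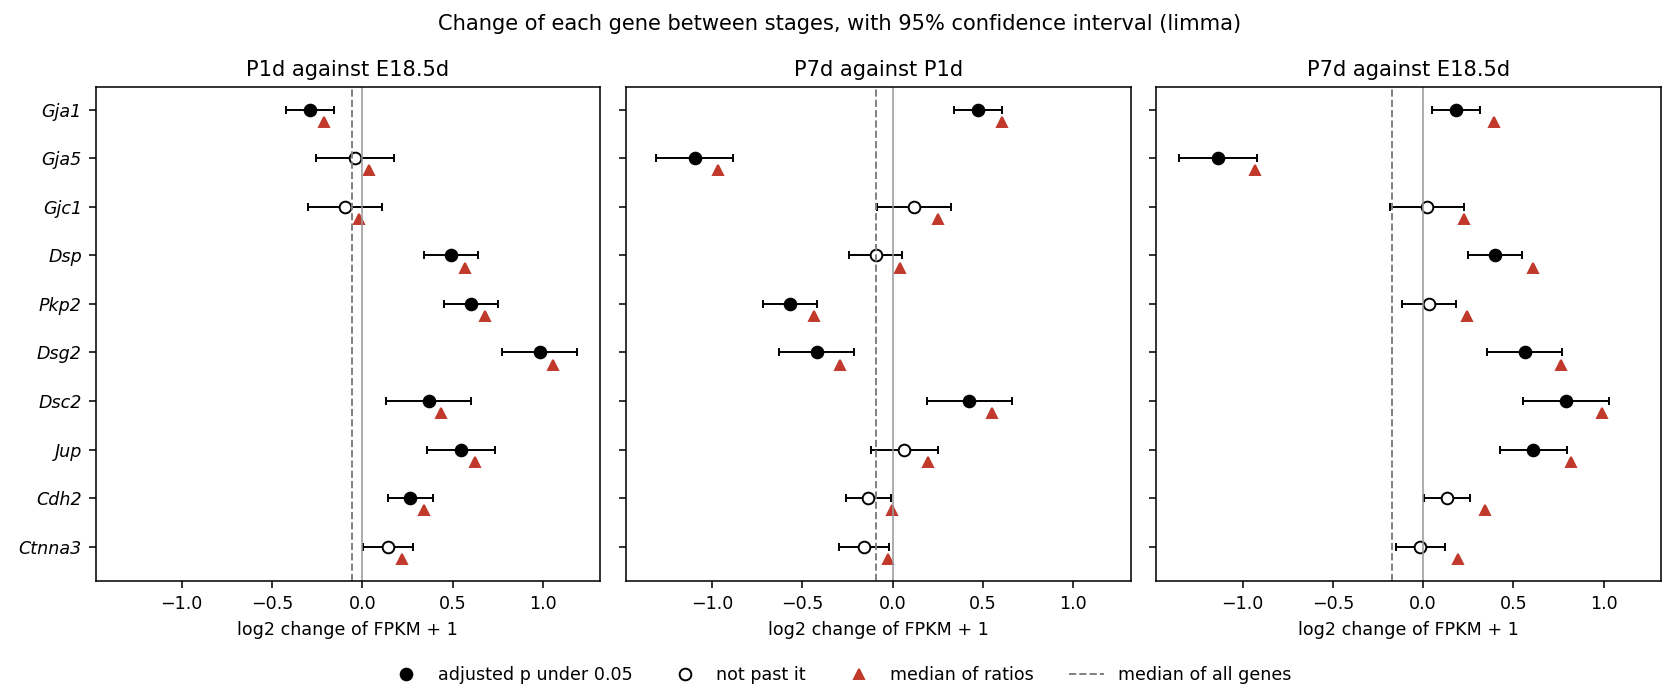
Change of the 10 genes on the log2(FPKM + 1) scale (horizontal axis) in the 3 comparisons of stages, with 95% confidence intervals of the limma fit, triangles for columns scaled by the median of ratios and a dashed line at the median of all 13618 genes. Filled points passed the threshold. Gja5 at P7d lies at -1.14, and the 5 desmosomal genes at P1d lie between 0.37 and 0.98.

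Counted together, 6 of the 10 genes were called higher and 1 lower in P1d hearts than before birth, where 18.4% of all genes tested were higher and 27.6% lower. In 7 genes all hearts of P1d lay above those of E18.5d and in 1 below, as they did in 22.1% and 32.3% of all genes. Between E18.5d and P7d 5 were called higher and 1 lower, against 12.5% and 36.9% of all genes, and the hearts of P7d lay above in 7 genes and below in 1, against 16.9% and 45.6%. Between P1d and P7d 2 were called higher and 3 lower, against 15.5% and 28.6%, and the hearts of P7d lay above in 2 and below in 5, against 19.3% and 34.3%. The median change of the 10 genes was 0.32, 0.16 and -0.11 in these comparisons, and that of all genes -0.06, -0.17 and -0.09. The balance of all genes depended on the scale: between E18.5d and P7d 1706 were higher and 5025 lower as deposited, but 3159 higher and 2545 lower with the median of ratios, where the median of all genes was 0.01 and 8 of the 10 genes were called higher. The 5 hearts with little Xist held 1 heart of E18.5d and 1 of P7d. The calls between these stages were lost there, as were most calls among all genes. The changes were 0.19 for Gja1, 0.44 for Dsp, 0.70 for Dsg2, 1.04 for Dsc2, 0.58 for Jup and -1.07 for Gja5. With the working cardiomyocyte markers as a covariate limma called 0 of the 10 genes higher and 0 lower between E18.5d and P7d, with 1 and 1 at an unadjusted p under 0.05.

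FPKM are per length, so the levels of the genes can be ordered. At E18.5d Gja1 was highest at a mean of 208 FPKM, followed by Dsp (148), Cdh2 (134), Jup (58.8), Ctnna3 (52.8), Pkp2 (52.8), Gja5 (39.5), Gjc1 (29.0), Dsg2 (14.95) and Dsc2 (10.7), and only the neighbours Ctnna3 and Pkp2 overlapped between hearts. At P1d Dsp (209) stood above Gja1 (170) and Cdh2 (162), which overlapped, as did Jup (86.6) and Pkp2 (80.8), and Dsg2 (30.6) and Gjc1 (27.2). At P7d Gja1 (236) led again over Dsp (195) and Cdh2 (147), and Gja5 (17.5) had become the lowest, overlapping Dsc2 (19.1), which in turn overlapped Dsg2 (22.7).

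The reads of some genes could be shared with a neighbour, because exons of Gja5, Dsp and Dsg2 overlap genes on the other strand and the library protocol does not state that strand was kept. Gpr89, which overlaps Gja5, was at 7.19, 6.86 and 6.74 FPKM in the 3 stages. Gm10129 at Dsp was at 2.57, 3.16 and 1.72 FPKM, and Gm16090 at Dsg2 averaged 0.0911 FPKM.

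Around these 10 genes, a list of 73 other junction genes gave 42 that could be tested, of which 9 rose and 16 fell between E18.5d and P7d, with a median of -0.13. For falls this is near the background of 36.9% of all genes, while 12.5% of all genes rose. From E18.5d to P1d 9 rose and 10 fell, where 18.4% and 27.6% of all genes did, and from P1d to P7d 8 rose and 13 fell, where 15.5% and 28.6% did. With little Xist, in the 5 hearts, Xirp2 and Cdh3 changed most of the 42, by 2.08 and -1.86 between E18.5d and P7d. Of 20 other connexins and pannexins, 3 passed the filter (Gja3, Gja4 and Panx1), and limma called 0 of them between E18.5d and P7d, with changes of 0.22, -0.15 and -0.17 and 0 at an unadjusted p under 0.05. Of 14 other desmosomal genes 4 were tested, of which 2 rose and 1 fell. Desmin itself (Des), the filament that desmosomes anchor, rose by 0.34 from 257 to 325 FPKM (limma adjusted p = 0.00109), and Perp, a tetraspan protein of desmosomes, by 0.41 from 74.7 to 99.8 FPKM (adjusted p = 0.000123). Periplakin (Ppl), a plaque protein of epithelia, fell by 0.76 from 2.02 to 0.77 FPKM (adjusted p = 0.000965). The changes of Des, Perp and Ppl in the 5 hearts were 0.31, 0.46 and -0.94 (limma adjusted p = 0.261, 0.115 and 0.0907).

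Among 13 other adherens junction genes tested 2 rose and 6 fell between E18.5d and P7d, where 12.5% and 36.9% of all genes did. P-cadherin (Cdh3) was at 11.74, 11.81 and 10.71 FPKM at E18.5d, at 7.87, 7.52 and 7.66 at P1d, and at 2.53, 2.56 and 2.22 at P7d, a fall of each stage below the one before. It fell by 1.85 from E18.5d to P7d (SE 0.07, limma adjusted p = 2.56e-07), while T-cadherin (Cdh13), which lacks a cytoplasmic tail, rose by 0.91 from 48.3 to 91.6 FPKM (adjusted p = 1.35e-05). Vinculin (Vcl), which links catenins to actin, fell by 0.37 from 97.2 to 74.8 FPKM (adjusted p = 0.00467). The changes of Cdh3, Cdh13 and Vcl in the 5 hearts with little Xist were -1.86, 0.99 and -0.47 (limma adjusted p = 0.0215, 0.0569 and 0.213).

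Of 22 scaffold and associated genes 5 rose and 9 fell over the same interval, against 12.5% and 36.9% of all genes. Xirp2, a Xin-repeat protein that binds actin at the disc, was at 1.1, 1.22 and 1.73 FPKM at E18.5d, at 2.08, 1.54 and 1.62 at P1d, and at 8.39, 8.32 and 9.81 at P7d. It rose by 2.07 from E18.5d to P7d (SE 0.13, limma adjusted p = 3e-06), most of it after P1d (1.84, adjusted p = 1.42e-05). The Popeye-domain genes Bves and Popdc3, whose membrane proteins bind cyclic AMP, fell by 1.16 and 0.93 (adjusted p = 1.06e-05 and 0.000241). Bves went from 109 through 74.2 to 48.3 FPKM, and Popdc3 from 18.2 through 21.9 to 9.19. Over the 5 hearts with little Xist the changes of Xirp2, Bves and Popdc3 from E18.5d to P7d were 2.08, -1.19 and -1.19 (limma adjusted p = 0.0353, 0.0502 and 0.055), and Xirp2 rose by 1.78 after P1d (adjusted p = 0.0357).

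**Figure D5:**
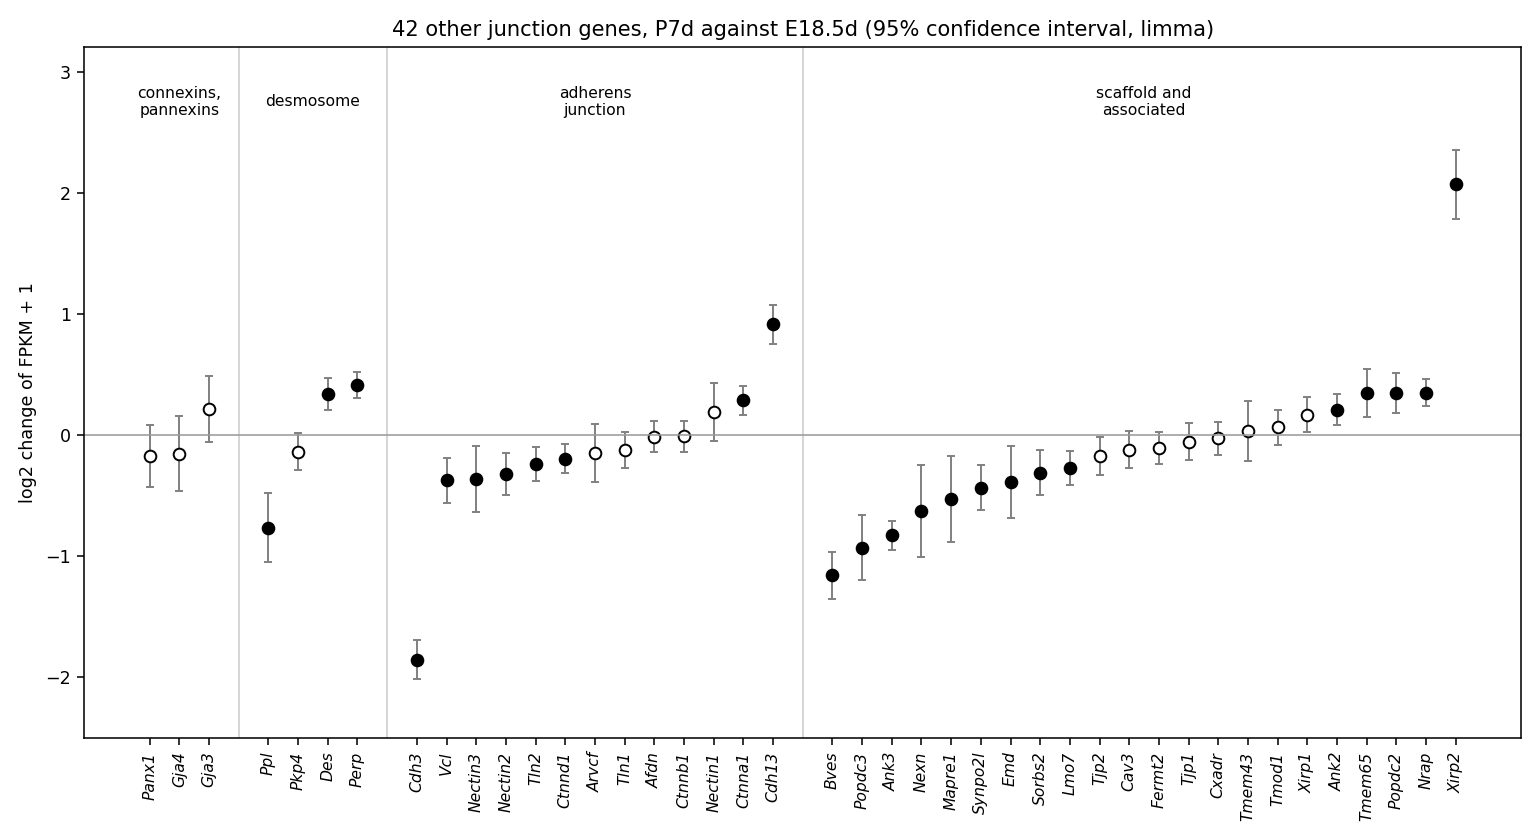
Change between E18.5d and P7d on the log2(FPKM + 1) scale (vertical axis) of the 42 other junction genes tested, in 4 groups and sorted within each (horizontal axis). Points are limma estimates with 95% confidence intervals, filled where the adjusted p was under 0.05; Xirp2 at 2.07 and Cdh3 at -1.85 are the extremes.

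Marker levels of other cell types were summed in each heart, and markers were counted as higher or lower at P7d than at E18.5d. In that comparison 12.5% of all genes tested were higher and 36.9% lower. The 8 epicardial and mesothelial markers summed to 85.2 to 97.6 FPKM at E18.5d, 78.7 to 105 at P1d and 45.9 to 54.0 at P7d, with 6 lower and 1 higher. The 8 endothelial markers summed to 666 to 705 FPKM at E18.5d, 964 to 1112 at P1d and 896 to 973 at P7d, with 6 higher and 1 lower at P7d. The 8 fibroblast markers summed to 2035 to 2135 FPKM at E18.5d, 1714 to 2275 at P1d and 2747 to 2830 at P7d, with 3 higher and 0 lower at P7d. The 8 smooth muscle and pericyte markers summed to 842 to 1035, 891 to 968 and 843 to 933 FPKM, with 4 higher and 3 lower at P7d, and the 8 blood markers to 5256 to 13733, 7925 to 15468 and 5248 to 6821 FPKM, with 3 higher and 0 lower. Of the 8 working cardiomyocyte markers 4 rose and 1 fell between E18.5d and P7d. The 9 epithelial markers, 7 of which averaged under 1 FPKM, summed to 1.44 to 46.3 FPKM over all hearts. Their part in the changes of the junction genes was not tested.

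Some genes followed the extreme members closely over the 9 hearts. Pfkfb2, a regulator of glycolysis, differed from Dsc2 by a root mean square of 0.0973 on the centred log2 scale and Grrp1 by 0.110, where Dsc2 itself departed from its mean by 0.344. The closest to Gja5, which departed by 0.537, were the metalloprotease Adamts6 (0.0946), the transcription factor Nfe2l3 (0.112) and Ears2, a mitochondrial tRNA synthetase (0.113).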

How the data were processed

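RNA of 9 hearts was sequenced from libraries of the NEBNext Ultra kit, and the authors deposited FPKM per gene, rounded to 2 decimals. The submitters' processing notes name STAR and the GRCm38 (mm10) build. The counting tool and annotation are not given in the sources used here. Of 48820 gene identifiers 48058 matched GENCODE M21, and every column belonged to a sample. Hearts were grouped by labelled stage.

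Values were taken as log2(FPKM + 1), and 13618 genes averaging 1 FPKM or more were fitted with limma 3.58.1 (R 4.3.3, eBayes with trend) in a joint model of the 3 stages with no covariate, with Benjamini-Hochberg adjustment over all genes and a threshold of 0.05. All adjusted p-values of single genes are from this fit or its alternatives. The labels give no litters or days, so p-values measure the spread between these hearts. In simulated data of 13618 genes, 172 of 200 changed genes were called in P7d against E18.5d, with 9 unchanged genes. In P7d against P1d 172 of 200 were called, with 16 unchanged genes. These counts hold only for the size of change that was simulated. They do not give the sensitivity for the changes of the junction genes, which varied in size, and smaller changes were not tested. Ratios used exact two-sided permutation tests (Python 3.11.15, scipy 1.17.1), with a separate Benjamini-Hochberg adjustment over their 24 comparisons. Figures were drawn with matplotlib 3.10.9. Between 75.9% and 84.8% of low values were whole multiples of 1 fragment, against 15.01% to 16.9% by chance, which gave the depth.

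The 10 genes and all lists were chosen with earlier results of these data known. All 10 genes are described. Of each list of related genes the 3 with the largest called changes between E18.5d and P7d are named, plus partners of ratios. The 3 genes most like the member with the largest rise and the one with the largest fall are also named, apart from 1 that is not reported here. Alternatives were other pseudocounts and filters, 4 scalings, no trend, a replicate block, 2 stages only, a fold threshold, covariates for Xist and for cardiomyocyte markers, only the hearts with little Xist, and each heart left out. Protein sequences were not used here.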

Additional observations from a re-analysis of the deposited data

How the results depend on the processing

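Counts are given for P7d against E18.5d first, then for P1d against E18.5d, then for P7d against P1d. Calls of the 10 genes, higher then lower, were 5 and 1, 6 and 1, and 2 and 3, and those of the 42 related genes 9 and 16, 9 and 10, and 8 and 13. With the median of ratios 8 of the 10 genes were higher in P7d against E18.5d, and the related genes were 15 higher and 5 lower, 5 lower at P1d, and 14 higher and 8 lower at P7d against P1d. Of all 13618 genes, 3159 were higher and 2545 lower under this scaling, 3215 and 3031 at P1d, and 3194 and 2471 at P7d against P1d. Equal sums over protein-coding nuclear genes gave 6 related genes lower in P7d against E18.5d, 6 lower at P1d, and 15 higher and 7 lower at P7d against P1d. Of all genes, 2871 were lower there, 3500 lower at P1d, and 3294 higher and 2234 lower at P7d against P1d. Quantile normalization gave 7 related genes lower in P7d against E18.5d and 15 higher and 8 lower at P7d against P1d. Of all genes, 2937 were lower there, and 2879 higher and 2787 lower at P7d against P1d. With equal column sums 3 of the 10 genes were higher at P1d, and the related genes were 2 higher and 16 lower at P1d and 7 lower at P7d against P1d. All 13618 genes shifted too under this scaling, with 1175 higher and 4694 lower at P1d and 1729 lower at P7d against P1d.

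An absolute log2 change of at least 1 as a further condition kept 0 of the 10 genes higher and Gja5 as the 1 lower at P7d against either stage, 0 and 0 at P1d, and 0 higher at P7d against P1d. Related genes were then 1 and 2, 0 and 0, and 1 and 2. In the 5 hearts with Xist at or under 1 FPKM most calls were lost, among the 10 genes, the related genes and all genes alike. That fit held 1 heart of E18.5d and 1 of P7d, so its changes are given above without counts of calls. With the working cardiomyocyte markers as a covariate limma called 0 and 0, 0 and 0, and 1 higher of the 10 genes, and Gja5 and Pkp2 were still called lower at P7d against P1d (1 and 1, 3 and 0, and 1 and 3 at an unadjusted p under 0.05). Of the related genes it called 0 and 0, 0 and 0, and 3 and 6. The working cardiomyocyte markers changed with stage themselves, so stage and marker level are poorly separated in that fit. The cause was not tested. With Xist as a covariate 1 of the 10 genes was higher at P7d against P1d, and 5 related genes were lower at P1d.

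The hearts carry the numbers 1 to 3 in each stage, but same-numbered hearts did not deviate together (r from -0.05 to 0.11 over 9 pairs, 1 of them above 0.1), so the numbers were not taken to pair them. A fit with the replicate block called 4 of the 10 genes higher and 1 lower at P7d against E18.5d, without Gja1 (0.18, adjusted p = 0.0514), and 6 and 1, and 2 and 3 in the other comparisons.

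Leaving out each heart in turn gave 4 to 6 of the 10 genes higher and 1 lower at P7d against E18.5d, 5 to 6 higher and 1 lower at P1d, and 2 to 3 higher and 3 to 4 lower at P7d against P1d. Related genes lower at P1d were 6 to 10, with 6 when heart 2 of E18.5d was left out. The mean log2 ratio of Jup to Ctnnb1 at P7d against P1d, -0.04 in all hearts, ranged from -0.15 to 0.0363, with 0.0363 when heart 2 of P1d was left out, and was 0.0058 in the 5 hearts. That of Gjc1 to Gja5 at P1d against E18.5d ranged from -0.14 to 0.0006, with 0.0006 when heart 1 of P1d was left out. That of Jup to Dsp at P1d ranged from -0.0703 to 0.15, with -0.0703 when heart 2 of P1d was left out. No other ratio changed its direction.

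Some differences of single genes changed sign. Gjc1 at P7d against E18.5d was -0.0203 with equal column sums and -0.652 with the marker covariate, and ranged from -0.0248 (without heart 3 of E18.5d) to 0.0556 with hearts left out. It was -0.0594 at P7d against P1d with the covariate. Pkp2 at P7d against E18.5d was -0.0104 with equal column sums, and Cdh2 -0.0143 with the covariate. Ctnna3 at P7d against E18.5d was 0.15, 0.194 and 0.129 with equal protein-coding sums, the median of ratios and quantile normalization, 0.114 in the 5 hearts, and -0.0653 to 0.0185 with hearts left out. At P1d Ctnna3 was -0.0271 with equal column sums. Gja5 at P1d was 0.0362 with the median of ratios, 0.0025 with quantile normalization, and -0.087 to 0.0275 with hearts left out. Dsc2 at P1d, called in the fit of all hearts, was -0.212 with the marker covariate. Dsp at P7d against P1d was 0.0362, 0.0595, 0.0395 and 0.0204 under equal column sums, equal protein-coding sums, the median of ratios and quantile normalization. Jup at P7d against P1d ranged from -0.0196 to 0.145 with hearts left out, and Cdh2 was 0.0182 with equal protein-coding sums. With 3 hearts per stage, the exact tests of ratios cannot pass 0.05.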
